A study of Mus musculus with 6 samples.

Results

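The Kruppel-like factors (KLFs) described here are 10 genes, Klf2, Klf3, Klf4, Klf6, Klf7, Klf9, Klf10, Klf11, Klf12 and Klf13, chosen by name, with earlier results of these data known, by a rule that uses no measured value. All 10 were found by Ensembl identifier among the 55487 genes of the RNA sequencing tables. The libraries came from naive CD4+ T cells taken from untreated wild-type mice of the strain C57BL6/J, 3 from the spleen and 3 from the mesenteric lymph node (mLN), which drains the gut. Polyadenylated RNA was sequenced. No gene was targeted and no agent was given in either group. The sources used here give neither the sorting method nor the age of the mice, nor whether animals were pooled. Because no label says that the replicates came from separate animals, a p-value here reflects library-to-library spread only, and that spread may be technical.

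KLFs are transcription factors that bind GC-rich and CACC-type DNA motifs through zinc fingers at the end of the protein, and the related SP factors bind much the same motifs. In naive T cells Klf2 is known for holding the cell at rest and for sustaining genes of circulation through blood and lymph, such as the sphingosine phosphate receptor gene S1pr1. The factor FOXO1 and the ERK5 kinase acting through MEF2 factors are known to raise Klf2 transcription, and T cell receptor signals lower it. Klf3 and Klf12 are repressors that recruit CtBP proteins, Klf9, Klf10, Klf11, Klf13 and Klf16 belong to the branch that recruits SIN3A, and Klf4, Klf6 and Klf7 are mainly described as activators.

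The promoter sequences of the 4 most abundant members are shown because these 4 carry the results below. RefSeq held a window for 9 of the 10 members, and the 250 bases before RefSeq's start are used here, on the GRCm38.p6 assembly and 5′ to 3′ on the gene's own strand. The windows are chr8:72318812-72319061 on the plus strand for Klf2, chr7:63938916-63939165 on the minus strand for Klf13, chr13:5861239-5861488 on the plus strand for Klf6 and chr5:64803271-64803520 on the plus strand for Klf3. RefSeq's start lies inside the gene as GENCODE annotates it for 3 of these. The last 29 bases of the Klf2 window, 133 of the Klf3 window and 7 of the Klf6 window therefore fall within the GENCODE gene. Among the windows not printed but counted below, all 250 bases of those of Klf7 and Klf12, and 97 bases of that of Klf11, also fall within it. Capitals mark the GC box GGGCGG, or CCGCCC where it lies on the other strand, the kind of motif KLF and SP factors bind, and in Klf2 also a match to the MEF2 consensus.
Klf2: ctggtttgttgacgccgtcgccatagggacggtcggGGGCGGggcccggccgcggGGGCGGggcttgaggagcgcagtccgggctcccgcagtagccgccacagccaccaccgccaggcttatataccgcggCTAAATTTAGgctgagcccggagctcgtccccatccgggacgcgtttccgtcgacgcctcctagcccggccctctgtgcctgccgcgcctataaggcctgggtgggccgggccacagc
Klf13: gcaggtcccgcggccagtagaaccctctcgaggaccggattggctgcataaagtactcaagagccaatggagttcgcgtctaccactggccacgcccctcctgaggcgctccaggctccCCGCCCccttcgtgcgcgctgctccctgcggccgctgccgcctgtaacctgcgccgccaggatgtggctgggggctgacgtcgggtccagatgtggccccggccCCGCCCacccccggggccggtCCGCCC
Klf6: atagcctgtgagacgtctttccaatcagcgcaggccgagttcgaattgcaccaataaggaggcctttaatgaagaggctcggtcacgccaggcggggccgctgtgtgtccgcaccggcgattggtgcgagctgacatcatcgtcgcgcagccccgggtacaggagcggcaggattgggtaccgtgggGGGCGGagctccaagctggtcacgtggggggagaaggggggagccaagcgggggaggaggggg
Klf3: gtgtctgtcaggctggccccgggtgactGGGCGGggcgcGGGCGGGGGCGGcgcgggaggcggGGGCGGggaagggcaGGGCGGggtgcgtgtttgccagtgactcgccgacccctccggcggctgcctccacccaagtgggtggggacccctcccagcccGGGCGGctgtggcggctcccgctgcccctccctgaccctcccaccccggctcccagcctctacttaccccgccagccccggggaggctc
G and C made up 71.2% of the Klf2 window, 71.6% of the Klf13 window, 64.8% of the Klf6 window and 78.4% of the Klf3 window. The GC box was found in 7 of the 9 windows, with 2 matches in Klf2, 3 in Klf13, 1 in Klf6 and 6 in Klf3, where 2 of them adjoin and appear as 1 run of capitals. It is present in 32.7% of all 32851 windows of this length in the table. The MEF2 match CTAAATTTAG, with 108 bases between it and the start, was in the Klf2 window only among these 9, and 2.92% of all windows hold a match. The FOXO core GTAAACA, on either strand, was in 1 window, that of Klf9, and 3.17% of all windows hold it. The CACC box CACCC, on either strand, was in 6 of the 9 windows and in 52% of all windows.

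Summed expected counts, RSEM's estimates of reads per gene, ran from 13205499 to 20054205 per library. A floor of 3 counts corresponds to 0.149 to 0.225 CPM (counts relative to the library's total, adjusted with TMM factors), for counting error only. Replicate 3 stood apart in both tissues. It differed from the other 2 libraries of its tissue by chi-square values per degree of freedom of 9.05 to 11.9, against 5.60 between spleen replicates 1 and 2 and 5.83 between mLN replicates 1 and 2. Genes rich in G and C were high in it, with a Spearman rho across 12478 genes between the GC content and the deviation from the tissue mean of 0.347 in spleen replicate 3 and 0.40 in mLN replicate 3, and of -0.261 to -0.133 in the other 4 libraries. Of 10 T cell markers 5 were lower in mLN and 1 was higher, and their summed CPM ran from 5920 to 6050 in spleen and from 5281 to 5438 in mLN. The T cell gene Cd4 was at 930 ± 45.1 CPM in spleen and 891 ± 12.4 in mLN (SD over 3 libraries each). Of 7 naive T cell markers, 4 were higher in mLN and 3 were lower. Markers of several other cell types were rare but unequal. Natural killer cell markers summed to 46.4 to 54.6 CPM in spleen and 58.25 to 73.1 CPM in mLN. Most of that sum was Prf1, at a mean of 43.7 CPM in spleen and 59.9 in mLN. Of 4 tested members of that list, 1 was higher, which was Prf1, and 0 were lower. Klrd1, Gzma and Eomes had log2 fold changes of -0.59, -1.30 and -0.50 that did not pass the test, and the list median was -0.55. Neutrophil markers summed to 34.2 to 39.5 CPM in spleen and 0.150 to 1.29 CPM in mLN, with 6 of 10 tested and all 6 lower, and Ly6g and Elane at 0 in every library. Monocyte and macrophage markers summed to 54.9 to 60.8 and 14.3 to 15.8 CPM, with 8 of 11 tested members lower in mLN, and B cell markers to 31.0 to 34.3 and 10.3 to 17.5 CPM, with 5 of 7 lower. In such bulk samples, fewer cells of a type and less RNA per cell cannot be told apart.

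**Figure D1:**
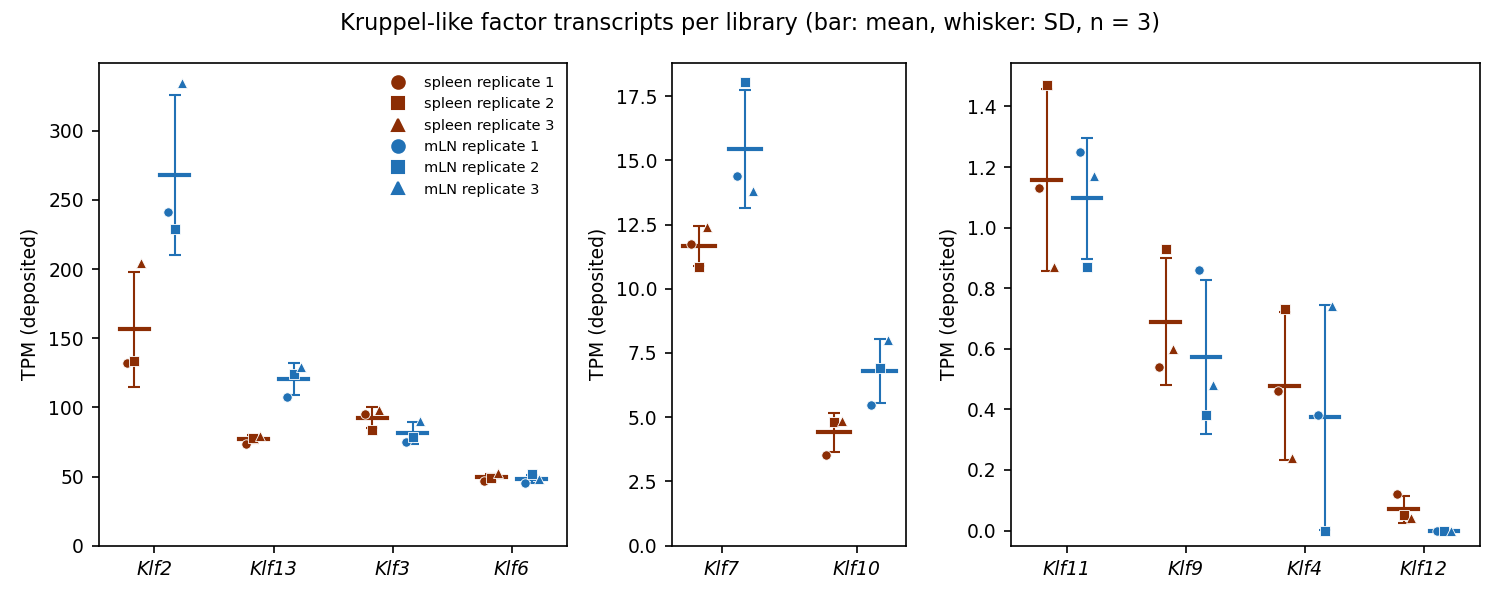
Deposited TPM of the 10 KLF genes in each library, in 3 panels with their own linear axes, spleen in brown and mLN in blue, with the mean as a bar and the SD as a whisker (n = 3). Klf2 is the most abundant in each tissue and is highest in replicate 3 of each, Klf13 is higher in every mLN library than in any spleen library, and Klf12 is at 0 in mLN.

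Levels of different genes can be compared only per transcript length, for which the deposited TPM, RSEM's abundance per transcript length, are used. Klf2 was the most abundant member in both tissues. Its TPM were 131.9, 133.4 and 204.7 in spleen replicates 1, 2 and 3 and 241.4, 228.7 and 334.6 in mLN replicates 1, 2 and 3. In spleen the order continued with Klf3 at 92.6 ± 7.65 TPM, Klf13 at 76.8 ± 2.88, Klf6 at 49.5 ± 2.57, Klf7 at 11.7 ± 0.787 and Klf10 at 4.41 ± 0.751 (SD, n = 3), with library ranges that did not overlap between neighbours. In mLN Klf13, at 120 ± 11.4 TPM, stood above Klf3, at 81.3 ± 7.93, and the members after them kept their order, with Klf6 at 48.3 ± 3.09, Klf7 at 15.4 ± 2.30 and Klf10 at 6.80 ± 1.26 (SD, n = 3). The order of Klf3 and Klf13 was therefore opposite in the 2 tissues, and in each tissue their library ranges were separate. Klf11, Klf9 and Klf4 lay between 0.24 and 1.47 TPM in the spleen libraries, where neighbours in this order overlapped, and between 0 and 1.25 TPM in mLN. Klf12 lay between 0.04 and 0.12 TPM in spleen and was at 0 in each mLN library.

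The members made up unequal parts of the KLF transcripts of each tissue, a measure that no scaling between libraries can move. Klf3 took 26.1%, 23.1% and 21.7% of the summed TPM of the 10 genes in spleen replicates 1, 2 and 3, and 15.2%, 15.5% and 14.4% in mLN replicates 1, 2 and 3. Klf6 took 11.5% to 13.6% in spleen and 7.65% to 10.1% in mLN. These shares did not overlap between tissues for either gene. The sum they refer to was 365.7, 363.0 and 453.5 TPM in spleen and 491.6, 509.4 and 626.3 in mLN. The TPM of Klf6 itself overlapped between the tissues. Those of Klf3 did too, at 83.9 to 98.4 in spleen and 74.8 to 90.1 in mLN. The lower shares of these 2 genes therefore do not by themselves show lower levels. On CPM, which are not divided by transcript length, Klf6 and Klf3 were lower in mLN, as given below. Klf2 took 36.1%, 36.8% and 45.1% in spleen and 49.1%, 44.9% and 53.4% in mLN, so that spleen replicate 3 lay just above mLN replicate 2. Klf13 took 17.5% to 21.4% in spleen and 20.7% to 24.4% in mLN, with overlap.

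**Figure D2:**
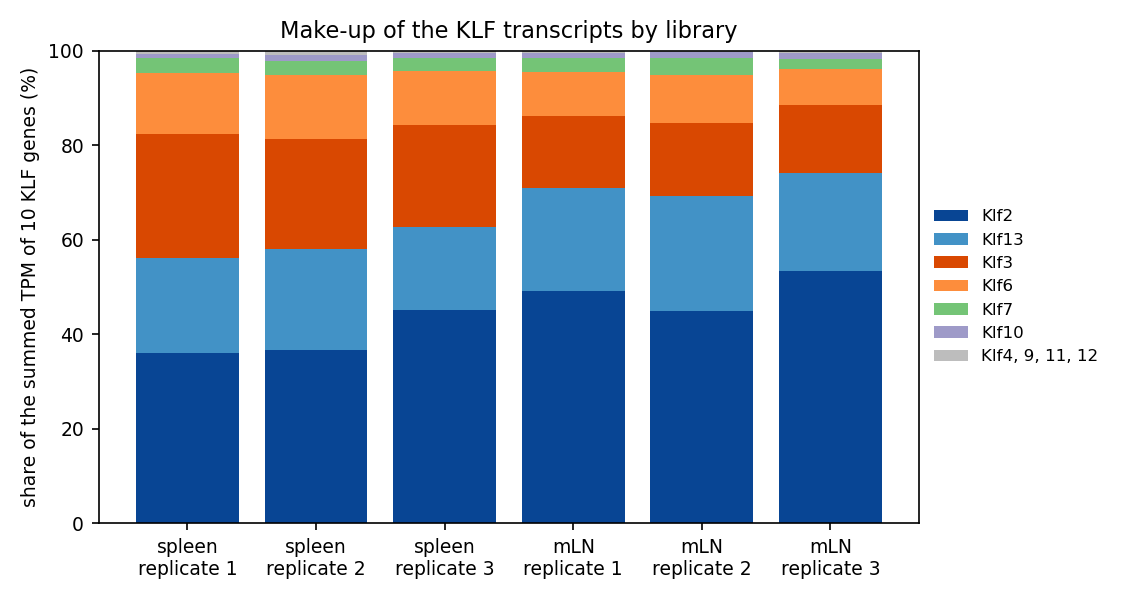
Share of the summed TPM of 10 KLF genes (percent, linear axis) taken by each gene in each of the 6 libraries, stacked to 100 percent, with Klf4, Klf9, Klf11 and Klf12 drawn together. The dark orange Klf3 band is 14.4% to 15.5% high in the mLN libraries and 21.7% to 26.1% in the spleen libraries.

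The comparison of mLN with spleen asks how naive cells that were taken from these 2 sites differ in their transcripts. Klf13 rose in mLN, Klf6 and Klf3 fell, and the difference of Klf2 was of the same size as that of Klf13 but did not pass the test. Of the 9 members that passed the filter on low counts, 1 was higher and 2 were lower when edgeR's quasi-likelihood test was read at an adjusted p of 0.05, and Klf12 was not tested. Over all 12486 genes tested, 29.6% passed, 16.1% higher and 13.5% lower, so 3 of 9 members is near the background and is no result about the family. The CPM of the 2 tissues did not overlap for the same 3 of 9 members, against 41.8% of all genes tested. The median log2 fold change was -0.05 over the 9 members and -0.01 over all genes tested. Log2 fold changes below are mLN minus spleen, on the CPM scale, with standard errors (SE) and 95% intervals from the same fit.

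**Figure D3:**
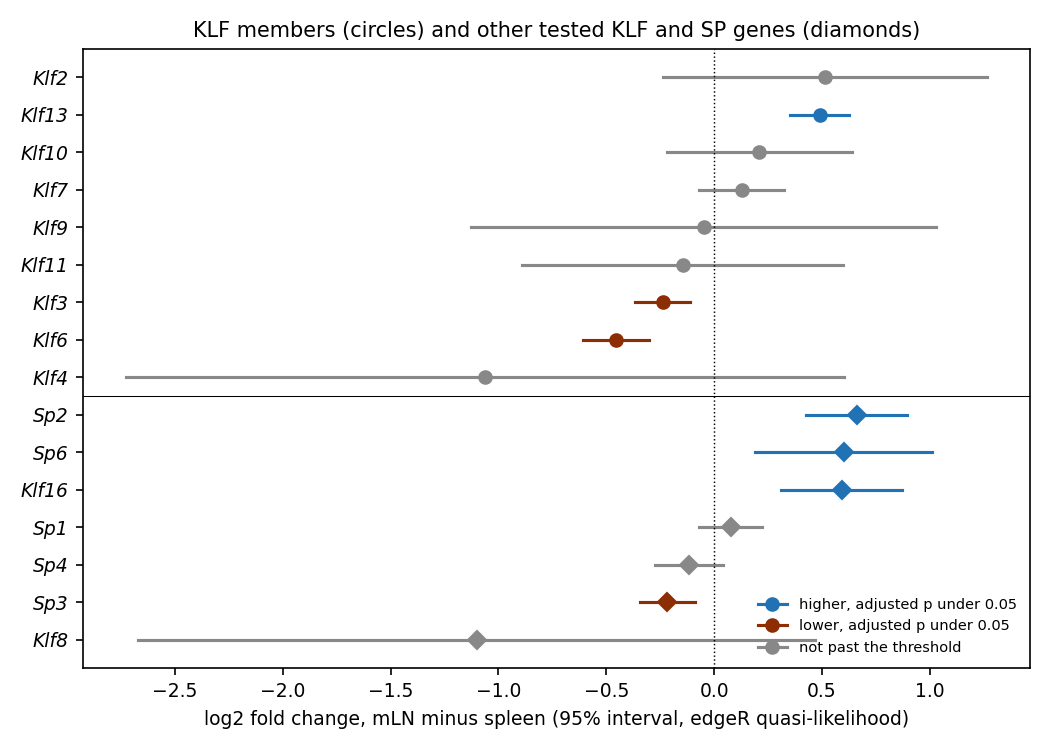
Log2 fold change of each tested KLF member (circles) and of the other tested KLF and SP genes (diamonds), mLN minus spleen, with its 95% interval from edgeR's quasi-likelihood fit, blue for higher, brown for lower and grey for not past an adjusted p of 0.05. Klf13 lies at 0.49 with a narrow interval, while Klf2 lies at 0.51 with an interval that spans 0.

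Klf13 encodes an activator of the chemokine gene Ccl5 in activated T cells. Its gene is on chromosome 7, minus strand, from 63886351 to 63938915 of the mm10 genome. Its CPM were 306.5, 321.8 and 350.3 in spleen replicates 1, 2 and 3 and 440.6, 438.5 and 495.0 in mLN replicates 1, 2 and 3. Every mLN library was above every spleen library. The log2 fold change was 0.49 (SE 0.065, interval 0.35 to 0.63), a 1.40-fold rise, with an adjusted p of 7.71e-06 by edgeR. The call held in each of the 22 alternatives, with log2 fold changes from 0.31 to 0.64. The smallest of these came with a trend of the counts on transcript length removed (adjusted p = 0.00142, edgeR). Over all 12486 genes tested, the log2 fold change was higher for longer transcripts (Spearman rho 0.370), and the mean length for Klf13 was 5519 nt. Ccl5 itself was close to the floor, at 0.370 ± 0.537 CPM in spleen and 0.228 ± 0.204 in mLN (SD over 3 libraries each), and was not tested.

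Klf6, an early-response factor known from injury and from myeloid cells, lies on the plus strand of chromosome 13 between 5861482 and 5870394. Its CPM were 138.4, 146.2 and 154.0 in spleen and 109.0, 108.8 and 102.7 in mLN, replicates 1, 2 and 3 in each case. The lowest spleen library was above the highest mLN library. Klf6 fell to 0.730 of its spleen level (log2 fold change -0.45, SE 0.074, interval -0.61 to -0.30, adjusted p = 7.60e-05 by edgeR). The deposited TPM of Klf6 overlapped, at 47.1, 49.2 and 52.2 in spleen and 45.4, 51.6 and 47.9 in mLN. On log2 of TPM plus 1, the difference was -0.04 (limma, adjusted p = 0.819), and with each library centred on its median it was -0.28 (adjusted p = 0.0776). Centred with 0.1 added in place of 1, the difference was -0.30 (limma, adjusted p = 0.0720), so the call was lost in each alternative on TPM. RSEM's weighted transcript length of Klf6, which divides the TPM, was 3781 to 3798 nt in spleen and 3300 to 3708 nt in mLN, without overlap. Myeloid markers fell along with Klf6, as given above, and their part in its difference was not tested.

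Klf3, a repressor, lies on the plus strand of chromosome 5 between 64803388 and 64832901. Its CPM were 238.8, 246.5 and 247.3 in spleen and 200.9, 214.8 and 205.6 in mLN, replicates 1, 2 and 3. The groups did not overlap on CPM, but the deposited TPM of Klf3 did, as given above. It fell to 0.848 of its spleen level (log2 fold change -0.24, SE 0.062, interval -0.37 to -0.11, adjusted p = 0.00544 by edgeR). The call was lost on log2 of TPM plus 1 (-0.19, limma, adjusted p = 0.218), where the median of all genes tested was shifted to 0.21, and it held with the TPM centred (-0.43, adjusted p = 0.0287). Klf3 was the one member whose expected counts were not whole numbers in any library. An antisense gene model, Gm20033, overlaps 730 bases of it and held 18.3 to 45.6 expected counts per library. The division of reads between the pair is therefore uncertain, by a small part of the 2861 to 4340 counts of Klf3. Another model, C230096K16Rik, overlaps 1722 bases of Klf3 on the same strand and held 43 to 111 expected counts per library. RSEM's weighted length of Klf3 was 3257, 3754 and 3262 nt in spleen and 4117, 4173 and 3494 nt in mLN, with overlap.

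Klf2, on the plus strand of chromosome 8 between 72319033 and 72321656, had the largest spread between replicates of the abundant members. Its CPM were 174.2, 177.9 and 271.1 in spleen and 265.8, 248.6 and 373.9 in mLN, replicates 1, 2 and 3. Replicate 3 was the highest library of each tissue, and spleen replicate 3 was above mLN replicates 1 and 2. The log2 fold change was 0.51 (SE 0.276, interval -0.24 to 1.26, adjusted p = 0.266 by edgeR), a point estimate of 1.43-fold. It was 0.74 without spleen replicate 3 (adjusted p = 0.0949) and 0.30 without mLN replicate 3 (adjusted p = 0.536). Without replicate 3 of both tissues, an alternative chosen after seeing the data that leaves 2 libraries in each, it was 0.53 (SE 0.061, adjusted p = 6.64e-17, edgeR). On log2 of TPM plus 1 it was 0.78 (limma, adjusted p = 0.0225), and 0.54 with the libraries centred (adjusted p = 0.111).

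Klf2 and Klf13 are rich in G and C, and both were highest in the libraries where such genes were high. The transcripts of Klf2 hold 61.6% G and C and those of Klf13 57.1%, against 47.7% for Klf6 and 51.6% for Klf3. Each library's smooth trend on GC content was removed, taken as its deviation from the mean trend of all 6 libraries. The removal therefore takes out a difference in trend between the tissues as well as that of replicate 3. For Klf2 the trend was -0.266, -0.174 and 0.086 log2 units in spleen and 0.026, 0.008 and 0.320 in mLN, replicates 1, 2 and 3. After the removal, the CPM of Klf2 were 209.5, 200.8 and 255.4 in spleen and 261.1, 247.3 and 299.5 in mLN, replicates 1, 2 and 3. Replicate 3 was still the highest of each tissue, by less than before. The log2 fold change of Klf2 was then 0.28 (SE 0.121, adjusted p = 0.156, edgeR). The CPM of Klf13 became 334.0, 346.6 and 341.0 in spleen and 437.1, 438.7 and 436.6 in mLN. Its log2 fold change was 0.36 (SE 0.041, adjusted p = 1.46e-08, edgeR), with a gap between the tissues far wider than the spread within them. Klf6 and Klf3 stayed lower in mLN, at -0.34 (adjusted p = 6.34e-05) and -0.20 (adjusted p = 0.00135). Without replicate 3 of both tissues, 4 of 9 members were called, against 31% of the 12580 genes then tested, with log2 fold changes of 0.47 for Klf13 (adjusted p = 5.11e-20), -0.40 for Klf6 (adjusted p = 3.98e-06) and -0.24 for Klf3 (adjusted p = 0.000477, edgeR) beside that of Klf2 given above.

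**Figure D4:**
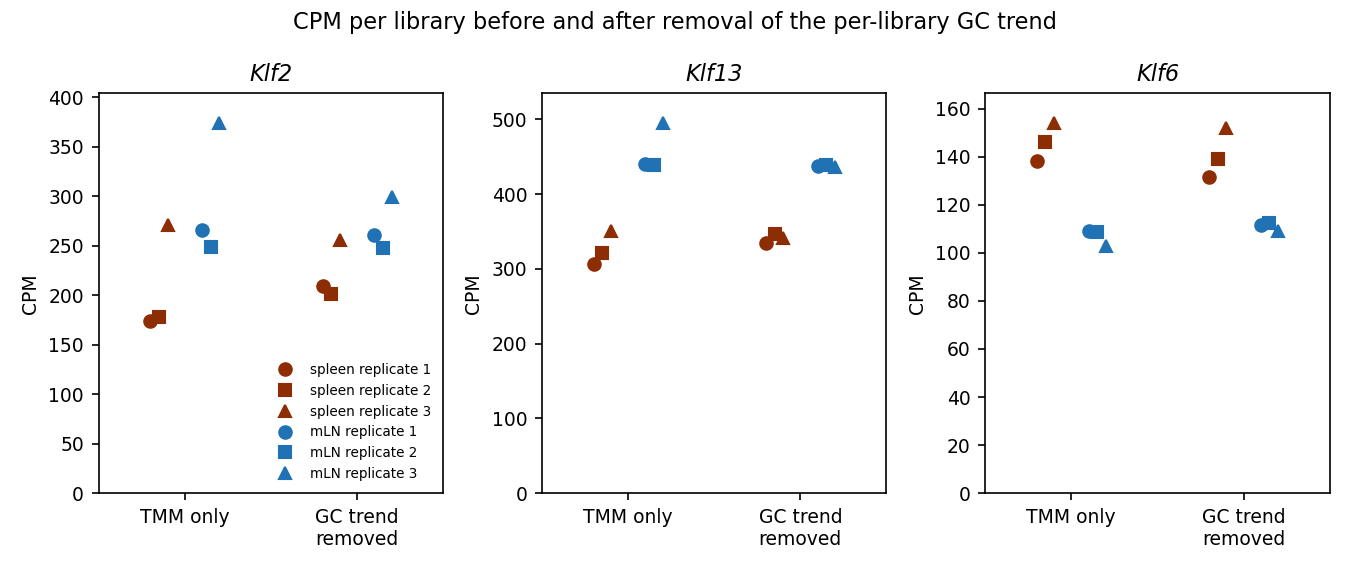
CPM of Klf2, Klf13 and Klf6 per library with TMM scaling only and after removal of each library's trend on transcript GC content, spleen in brown and mLN in blue, the marker giving the replicate number, on linear axes from 0. The replicate 3 triangles of Klf2 move from 271.1 to 255.4 in spleen and from 373.9 to 299.5 in mLN, and the 3 mLN points of Klf13 close up to between 436.6 and 438.7.

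Klf7, known best from the nervous system, was at 53.3, 62.3 and 67.4 CPM in spleen and 68.9, 68.2 and 63.2 in mLN, and the groups overlapped. Its log2 fold change was 0.13 (interval -0.07 to 0.32, adjusted p = 0.339 by edgeR), and -0.08 with the length trend removed (adjusted p = 0.577). It has the longest transcripts of the members, at a mean of 6508 nt. Klf10, named for its early induction by TGF-beta, was at 8.20, 10.9 and 11.3 CPM in spleen and 8.96, 12.8 and 13.5 in mLN, with overlap. Its log2 fold change of 0.21 had an interval from -0.22 to 0.64 (adjusted p = 0.498 by edgeR). Replicate 1 was the lowest library of each tissue for Klf10.

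The remaining members were rare. Klf11, a close relative of Klf10, was at 3.20 ± 0.402 CPM in spleen and 2.88 ± 0.477 in mLN (SD over 3 libraries each; log2 fold change -0.15, interval -0.89 to 0.60). Klf9, a target of glucocorticoid and thyroid hormone receptors, was at 1.76 ± 0.454 and 1.69 ± 0.730 CPM (SD over 3 libraries each; log2 fold change -0.05, interval -1.13 to 1.03). These intervals reach past a 1.5-fold change in both directions, so the depth sets little bound on either gene. Klf4, a pluripotency factor that also drives monocyte differentiation, had 15, 30 and 9 counts in spleen and 12, 0 and 16 in mLN. Its log2 fold change of -1.06 had an interval from -2.73 to 0.60 (adjusted p = 0.352 by edgeR). Monocyte markers were lower in the mLN libraries, as given above, and their part in the Klf4 counts was not tested. Klf12, a repressor whose gene spans positions 99870632 to 100284679 of chromosome 14, had 8, 4 and 3 counts in spleen and 0 in each mLN library. A count of 0 allows up to 0.149 to 0.225 CPM in those libraries. The spleen values were 0.566, 0.227 and 0.187 CPM, so the lowest of them lay within that range and the middle one just above it.

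Among 16 other KLF and SP genes, 7 were tested, and 3 were higher and 1 lower in mLN. For this list and those that follow, the shares over all genes tested were 16.1% higher and 13.5% lower, and lists this short are described by their counts only. Klf16 rose from 20.8 ± 3.09 to 31.4 ± 2.85 CPM (SD over 3 libraries each; log2 fold change 0.59, SE 0.135, adjusted p = 0.00202 by edgeR). Sp2 rose from 30.7 ± 4.13 to 48.5 ± 1.15 CPM (log2 fold change 0.66, SE 0.112, adjusted p = 1.17e-04 by edgeR). Sp3, which can repress at GC boxes, fell to 0.860 of the level in spleen (edgeR, adjusted p = 0.00974). Its log2 fold change of -0.22 became -0.01 with the GC trend removed (adjusted p = 0.910). The Sp3 call was lost in 5 alternatives, which also include log2 of TPM plus 1, centred TPM and the omission of spleen replicate 2. Sp6 had a log2 fold change of 0.60 (adjusted p = 0.0253 by edgeR) that lost its call in 9 alternatives, among them the omission of spleen replicate 2 or 3 and of mLN replicate 2 or 3, and the adjusted p reached 0.306. Sp1, the founding SP factor, was at 242 ± 1.27 CPM in spleen and 256 ± 26.9 in mLN (SD over 3 libraries each; edgeR, adjusted p = 0.464), and was called higher in 2 alternatives, with the GC trend removed (adjusted p = 0.0487) and without replicate 3 of both tissues (adjusted p = 0.0314). Sp4 had a log2 fold change of -0.12 (adjusted p = 0.271). Klf8, a CtBP-binding relative of Klf3, had a mean of 1.58 CPM in spleen and 0.752 in mLN (adjusted p = 0.303). Klf14, Klf15, Klf17, Sp5, Sp7 and Sp9 had no count in any library, and Klf1, Klf5 and Sp8 were too low to be tested.

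Genes of circulation that are linked to KLF2 did not move in one direction. Of 10 listed genes 7 were tested, 1 was higher and 2 were lower, with a list median of -0.06. Ccr7, the receptor for lymph node chemokines, fell to 0.797 of the level in spleen (adjusted p = 1.53e-04 by edgeR), and that call was lost on log2 of TPM plus 1 (-0.06, limma, adjusted p = 0.471). Itgb7, an integrin chain for gut homing, was 1.34-fold higher. S1pr1, needed for exit into lymph, was at 632 ± 21.8 CPM in spleen and 648 ± 18.8 in mLN (SD over 3 libraries each; log2 fold change 0.04, SE 0.055, adjusted p = 0.672 by edgeR). It was called higher in 2 alternatives, by 0.30 on log2 of TPM plus 1 (limma, adjusted p = 0.00738) and by 0.13 with the GC trend removed (edgeR, adjusted p = 0.00982). The remaining 3 listed genes were too low to be tested.

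Regulators known to act upstream of Klf2 were higher or did not pass the test. Of 10 tested genes 4 were higher and 0 lower, with a median log2 fold change of 0.27, against 16.1% higher and 13.5% lower over all genes. Foxo1 was at 298.8, 303.2 and 317.2 CPM in spleen and 421.7, 430.1 and 396.1 in mLN, replicates 1, 2 and 3. Every mLN library was above every spleen library, with a log2 fold change of 0.44 (SE 0.058, adjusted p = 7.45e-06 by edgeR). Mef2d, a MEF2 factor, rose 1.33-fold and Map3k3, a kinase of the ERK5 cascade, 1.22-fold, a call lost on centred TPM (adjusted p-values 0.135 to 0.154). Foxo3 was 1.33-fold higher, and its call was lost with the length trend removed and on centred TPM (adjusted p-values 0.175 to 0.183). Mapk7, the gene of ERK5 itself, had a log2 fold change of 0.25 (SE 0.149, adjusted p = 0.240), and Mef2c was at 1.53 CPM in each tissue, with a SE of 0.586 on its log2 fold change.

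Among partners of KLF proteins, 4 of 11 tested genes rose and 0 fell, the median being 0.20, against 16.1% and 13.5% over all genes. The acetyltransferase genes Ep300 and Crebbp rose by log2 fold changes of 0.58 and 0.59 (SE 0.063 and 0.077), and Ctbp1, the corepressor of Klf3, rose 1.28-fold (log2 SE 0.074). The Ctbp1 call was lost on centred TPM (adjusted p-values 0.0600 to 0.0672). Sin3a, the scaffold of the corepressor bound by Klf13, had a log2 fold change of 0.20 (adjusted p = 0.0393 by edgeR). That call was lost in 12 alternatives, among them the omission of any 1 spleen replicate, of mLN replicate 1 or of mLN replicate 2, and the adjusted p reached 0.525. Sin3b, Hdac1, Hdac2 and Kat2b did not pass the test, at log2 fold changes from -0.19 to 0.13. Ctbp2 was too low to be tested.

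Signals known to induce single members were examined in the same way. TGF-beta signalling induces Klf10 and Klf11, and 6 of its 9 listed genes rose while 0 fell (median 0.42). The receptor gene Tgfbr2 rose 1.53-fold, and the repressors Ski and Skil rose 1.81-fold and 1.78-fold. Smad7, which encodes an inhibitor of the receptor, rose from 95.7 ± 14.5 to 194 ± 26.9 CPM (SD over 3 libraries each; log2 fold change 1.02, adjusted p = 2.63e-05 by edgeR). Of 6 tested glucocorticoid response genes, a group to which Klf9 also belongs, 1 was higher and 1 lower. Tsc22d3, a direct target of the glucocorticoid receptor, fell from 366 ± 7.67 to 255 ± 12.2 CPM (SD over 3 libraries each; adjusted p = 1.14e-06 by edgeR), while Per1 was 1.36-fold higher, a call that was lost with the GC trend removed and on centred TPM (adjusted p-values 0.0734 to 0.107). The receptor gene Nr3c1 had a log2 fold change of 0.03 (SE 0.067). Fkbp5 and Sgk1 were at 0.32 and 0.15 (adjusted p = 0.0600 and 0.240).

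Genes of rest and growth moved in both directions, with 2 of 11 tested higher, 4 lower and a median of 0.03. Ccnd2, a cyclin of early cell cycle entry, rose 1.51-fold and Myc, which KLF2 is known to restrain, 1.66-fold. Slfn2, needed for T cell quiescence, fell to 0.642 and Btg2, an antiproliferative gene, to 0.802 of the spleen level. The Btg2 call was lost on log2 of TPM plus 1 (-0.06, limma, adjusted p = 0.615). Cdkn1a, a target of Klf4 in other settings, was below the filter in both tissues.

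Immediate early genes, which respond within minutes to stimulation and also to tissue handling, were higher in 9 and lower in 1 of 17 tested cases, with a median of 0.58. Fos rose 1.98-fold, Jun 1.91-fold and Egr1 1.83-fold. Their summed CPM were 1118, 1167 and 1380 in spleen and 1521, 1555 and 1890 in mLN, replicates 1, 2 and 3. Replicate 3 was the highest library of each tissue for this sum, as it was for Klf2. Junb and Jund, chosen for naming after their values were seen, showed it too, with Jund at 118.6, 141.6 and 210.0 CPM in spleen and 195.5, 204.5 and 319.6 in mLN. The excess in replicate 3 was small for Fos, at 30.90, 30.79 and 33.03 CPM in spleen and 60.28, 60.95 and 66.27 in mLN. Genes rich in G and C were also high in replicate 3, as given above. The part of base composition in this sum, and of any induction of these genes in the values of Klf2, was not tested.

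**Figure D5:**
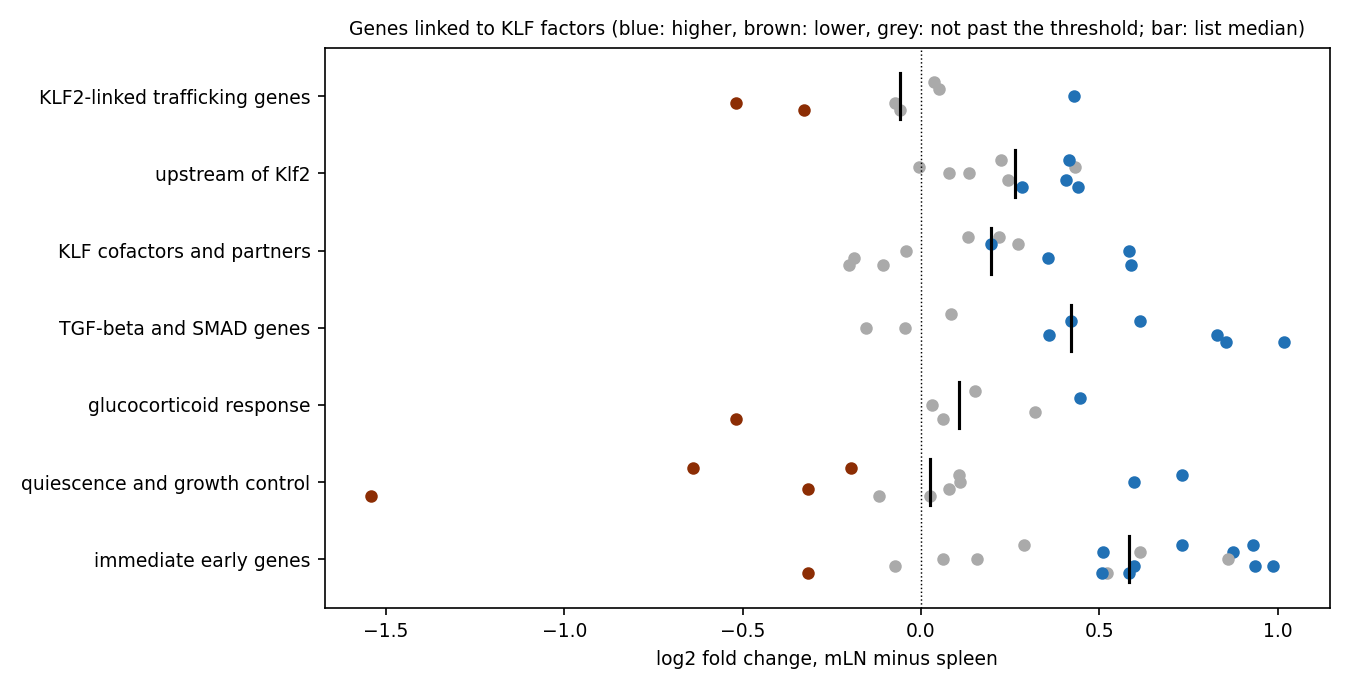
Log2 fold change (mLN minus spleen) of each tested gene in 7 lists of genes linked to KLF factors, blue for higher, brown for lower and grey for not past an adjusted p of 0.05, with the list median as a black bar. The circulation genes lie on both sides of 0 around -0.06, while 4 upstream regulators of Klf2 and 6 TGF-beta genes are higher and 0 are lower.

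The profile of Klf2 over the 6 libraries was compared with those of other genes. Of named protein-coding genes with a mean of at least 5 CPM, the nearest by Euclidean distance between centred log2 CPM profiles were Ung, a DNA repair glycosylase, at 0.126, Srf, the serum response factor, at 0.150, and the potassium channel gene Kcnh2 at 0.165 log2 units. Srf was at 62.6 to 90.4 CPM in spleen and 89.3 to 126.2 CPM in mLN, which overlap. Like Klf2, it was highest in replicate 3 of each tissue, and it had a log2 fold change of 0.54 (adjusted p = 0.0560 by edgeR). In 9 alternatives, among them limma-voom and the removal of the GC trend, Srf was called higher, with log2 fold changes from 0.33 to 0.83. The nearest to Klf13 were the actin gene Actb at 0.0573, Tnrc6c, of the microRNA silencing machinery, at 0.0686, and the Polycomb gene Phc2 at 0.0703 log2 units. Actb was at 3953, 4205 and 4463 CPM in spleen and 5679, 5720 and 6164 in mLN, a log2 fold change of 0.48. These distances describe 6 libraries in 2 groups and share the libraries' depth and base composition.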

How the data were processed

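RNA sequencing of 3 spleen and 3 mLN libraries was used, with groups and replicate numbers from the sample titles. Per the submitters' processing notes, STAR and RSEM were run against mm10. The sources used here do not give versions, annotation release or strand setting. The libraries were made with a directional kit per the labels' protocols. Expected counts, RSEM's estimate for each gene, were deposited without normalization and were rounded here. TPM and FPKM, RSEM's length-scaled values, were deposited beside them, and FPKM were not used. The deposited gene length is RSEM's mean over transcripts weighted by their abundance, in nucleotides. Of 55487 identifiers, 55141 were given a symbol. Coordinates and GC content came from GENCODE vM21 of GRCm38, the assembly named mm10, and promoter windows from RefSeq (GRCm38.p6).

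Genes were filtered with filterByExpr, which left 12486, scaled by TMM and tested for tissue alone with the quasi-likelihood F test of edgeR (two-sided), p-values being adjusted over all of them by Benjamini and Hochberg's method at 0.05. Each SE was derived as the log2 fold change divided by the root of F. The alternatives were DESeq2, limma-voom, factors from RLE or the upper quartile, limma on log2 TPM plus 1 (also centred on each library's median, and with 0.1), other filters, a threshold of 0.01, a block for the replicate number, loess trends (span 0.3) on length or GC content removed, ribosomal and mitochondrial genes or markers of other cells omitted, and each library left out. The omission of both replicates numbered 3 was chosen after seeing the data, as were the promoter motifs. The genes named are the 10 members, the up to 4 smallest p-values of each list, and the 3 nearest profiles to Klf2 and Klf13; others were chosen after their values were seen. Some genes of the list of circulation genes are not reported here by name. Members and lists were chosen with earlier results of these data known. The software was DESeq2 1.42.0, edgeR 4.0.16 and limma 3.58.1 under R 4.3.3, and pandas 2.3.3, numpy 2.4.6 and matplotlib 3.10.9 under Python 3.11.15.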

Additional observations from a re-analysis of the deposited data

How the results depend on the processing

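Klf13 kept its call in every alternative listed, Klf3 and Klf6 in all but those on TPM named above, and no KLF member changed direction with a call. Between 2 and 4 members were called. The replicate numbers are not shown to pair the libraries: the correlations of deviations between libraries of the same number were 0.0223, 0.0023 and 0.0652 for replicates 1, 2 and 3. Spleen replicate 2 correlated best with mLN replicate 1, while the replicates numbered 3 correlated best with each other. The replicates numbered 3 also deviated in the same direction by GC content, as given above, and whether they share a batch was not tested. With the replicate block 4706 genes were called against 3699, and 4 members against 3, Klf2 being the one added (log2 fold change 0.52, SE 0.045, adjusted p = 1.18e-24, edgeR). With each library left out in turn, 2824 to 3680 genes, 3 members and 32 to 38 genes of the other lists were called, against 3699, 3 and 37. On median-centred log2 TPM plus 1 the number of genes called was 1745, and with a pseudocount of 0.1 it was 1697, with 23 genes of the lists. The split of calls was 2010 higher to 1689 lower with TMM, 1692 to 2046 with upper-quartile factors, 2757 to 384 on log2 TPM plus 1, 798 to 947 with these centred, and 2639 to 1470 with the GC trend removed. On log2 TPM plus 1 the differences of Cdkn1b and Pecam1, called lower on counts, were 0.003 and 0.062. The number of neighbouring KLF members with separate TPM ranges was 7 in each tissue, 7 to 9 in spleen and 7 to 8 in mLN with a library left out, and 8 and 6 on counts per kilobase. Members under about 3 CPM are limited by depth. The cause of these changes was not tested.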
